A study of Mus musculus with 2 samples.

Results

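The 9 chemokine receptor genes Ccr1, Ccr2, Ccr4, Ccr8, Ccr9, Cxcr4, Cxcr5, Cxcr6 and Cx3cr1 were followed in T cells that carry CD4, taken from the visceral fat of mice. They were chosen by name, and each has a row among the 32285 genes of both deposited single-cell count matrices. The CD27_KO library came from pooled CD27-/- mice and the WT library from pooled WT mice. In both, the sort for TCRb+ CD4+ cells used the stromal vascular fraction, which is fat tissue freed of its fat cells, and the strain entry is C57BL/6 for both. CD27 is a costimulatory receptor of T cells whose ligand is CD70. The labels give a pool of 10 mice without saying whether each genotype had that number, and they give no age, sex or diet. With 1 library per genotype, no difference between them has a replicate check, so no p-value is given, and intervals cover counting error only.

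Chemokine receptors are G protein-coupled receptors with which leukocytes follow gradients of secreted chemokines into and within tissues. Naive T cells carry few of them besides Ccr7 and Cxcr4, and effector and regulatory T cells gain sets that go with their function. Of the receptors here, CCR1 and CCR2 bind inflammatory CC chemokines, CCR4 and CCR8 are known from type 2 helper and regulatory T cells, and CCR9 from cells that home to the small intestine. CXCR6 is known from tissue-resident lymphocytes, CX3CR1 from cytotoxic effector cells, and CXCR5 from follicular helper T cells. CXCR4 binds CXCL12 and is found on most leukocytes.

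After filtering and removal of 62 and 134 cells in clusters that were not T cells, the CD27_KO library held 6791 T cells with 19810374 unique molecular identifiers (UMIs) and the WT library 6204 T cells with 15835280 UMIs. A UMI marks 1 captured transcript end. The median T cell had 2201 UMIs in CD27_KO and 1931 UMIs in WT, so the CD27_KO library had more counts per cell. Cd27 itself had 15 UMIs in CD27_KO T cells and 2072 UMIs in WT T cells, which goes with the labels. The 5 T cell markers summed to 3293 CPM in CD27_KO and 3335 CPM in WT, where CPM is the count per 1000000 UMIs of the cells summed. At least 1 Cd4 UMI was seen in 30.8% of CD27_KO and 25.3% of WT T cells. Both libraries shared 12 cell barcodes. Both libraries were clustered together with every chemokine receptor gene kept out, so that the receptors did not make the clusters, and this gave 15 T cell states. A state was named only from marker genes, and 4 states stay unnamed and are called by their leading gene.

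The libraries differed in their make-up, which every level over all T cells depends on. The unnamed state led by P2rx7 held 25.4% of CD27_KO and 3.95% of WT T cells, and the Th2-like state led by Calca held 15.7% and 4.34%. The Treg-like state led by Cxcl2, with Areg and Il10 among its leading genes, held 2.87% of CD27_KO and 17.4% of WT T cells. Naive-like cells were 4.64% of CD27_KO and 21.2% of WT T cells. These shares are given as the weights behind the levels below, not as a finding.

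Ccr2, a receptor for CCL2 and related monocyte-attracting chemokines, was carried by effector and regulatory states and was near 0 in naive-like cells. In the Th2-like state led by Calca it had 696 CPM in CD27_KO (95% exact Poisson interval 665 to 727) and 558 CPM in WT (503 to 619). Naive-like cells had 2.96 CPM in CD27_KO and 4.52 CPM in WT. In CD27_KO, the Treg-like state led by Foxp3 came next with 620 CPM, and its interval overlapped that of the Th2-like state. Among WT states with at least 100 cells, the Treg-like state led by Cxcl2 came next with 415 CPM, below the Calca-led state beyond counting error. The Th2-like state led by Ccl1, with only 64 WT cells, had 469 CPM (408 to 538), and its interval overlapped those of both. The unnamed state led by Gpm6b, in which the memory marker genes Slamf6 and Cd200 stand among the leading genes, had the lowest level above naive-like cells, 77.3 CPM in CD27_KO and 27.0 CPM in WT. The other states with at least 100 cells lay between 204 and 536 CPM in CD27_KO and between 171 and 285 CPM in WT.

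Cxcr6, the receptor for CXCL16, followed the same order at its ends. The Th2-like state led by Calca had 336 CPM in CD27_KO and 412 CPM in WT, and naive-like cells had 4.44 CPM in CD27_KO and 1.88 CPM in WT. In WT that Th2-like state stood above every other state with at least 100 cells beyond counting error, with 216 CPM in the unnamed state led by Bcl2a1d next. In CD27_KO it was followed without a gap by the Th2-like state led by Ccl1 (296 CPM) and the Th1-like states led by Ly6c2 (266 CPM) and Il18r1 (258 CPM). The Treg-like states led by Foxp3 and Cxcl2 had 137 and 154 CPM in CD27_KO, against 37.1 and 162 CPM in WT. In CD27_KO both were below every Th1-like and Th2-like state, while in WT the Cxcl2-led state was above the Th1-like state led by Il18r1 (105 CPM). The state led by Gpm6b had 53.3 CPM in CD27_KO and 16.9 CPM in WT.

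**Figure D1:**
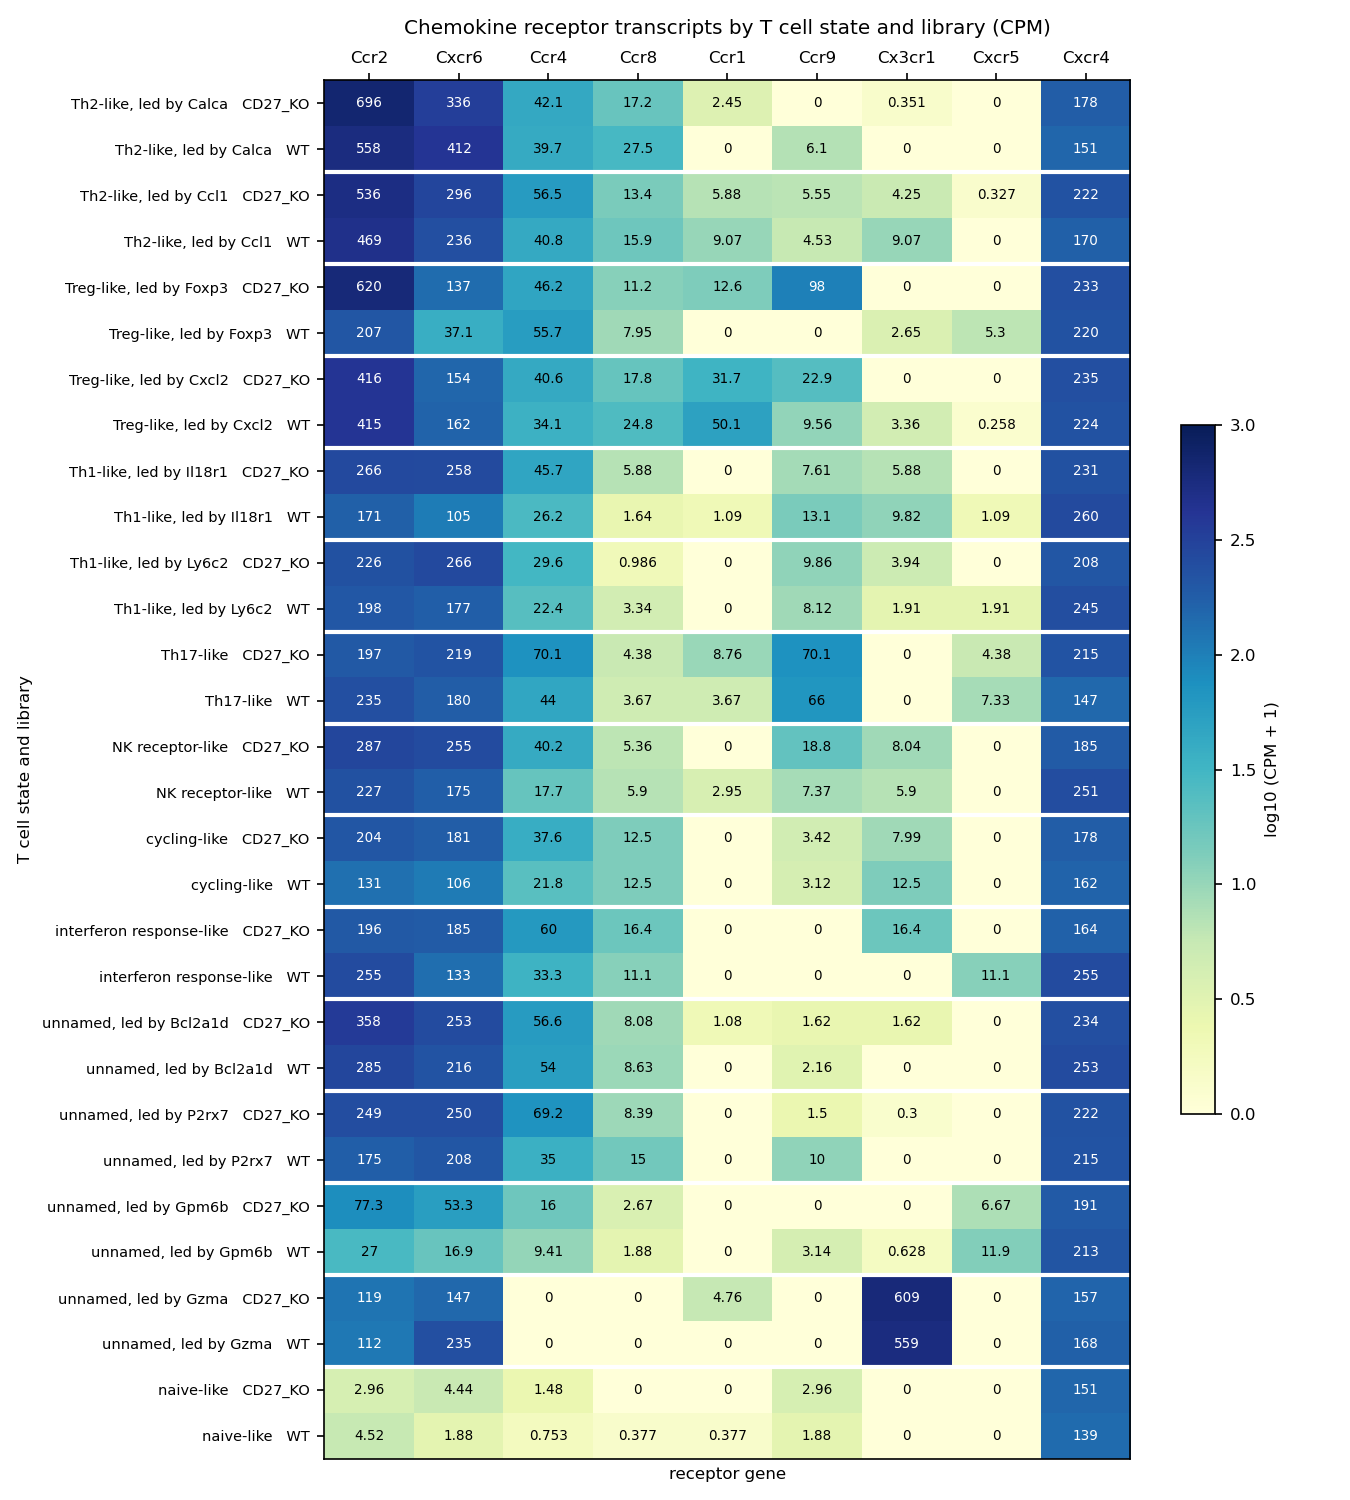
Transcript levels of the 9 receptors in the 15 T cell states, in CPM, with the CD27_KO library above the WT library in each state. Colour is log10 of CPM plus 1. Ccr2 and Cxcr6 are lowest in naive-like cells, Cx3cr1 stands at 609 and 559 CPM in the state led by Gzma, and Cxcr4 has a level above 130 CPM in every state.

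Across the 28 state and library sums with at least 50 cells, the log2(CPM + 10) values of Ccr2 and Cxcr6 had a Pearson r of 0.892, the highest among the members. These points share 2 libraries and differ in depth, so r is a description. Ccr2 and Ccr4 had r = 0.780, Ccr4 and Cxcr6 had r = 0.702, and Ccr2 and Ccr8 had r = 0.684. Among 8607 other genes, the levels most like that of Ccr2 were those of Cish (r = 0.939), a suppressor of cytokine signalling, Serinc3 (r = 0.928) and Vim (r = 0.894), which encodes vimentin. Those most like Cxcr6 were Id2 (r = 0.946), a transcriptional regulator of effector lymphocytes, Cdc42ep3 (r = 0.931) and Metrnl (r = 0.915).

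Ccr2 and Cxcr6 also lie in the same stretch of the genome. In GENCODE vM21 (mm10), Cxcr6 is at chr9:123806475-123811760 and Ccr2 at chr9:124101950-124113557, both on the plus strand, with Xcr1, Ccr1 and Ccr3 between them and Ccr9 22.1 kb before Cxcr6. Of the 9 members 8 are on chromosome 9, Cx3cr1 and Ccr8 22.2 kb apart among them, and Cxcr4 is on chromosome 1. The promoters of the 4 members whose levels went together across states are printed here, from RefSeq (GRCm38.p6), each 250 bases before to 50 bases after the start site, to show which short motifs they hold. Capitals mark matches on either strand to the motifs of AP-1, GATA or RUNX factors. The letters searched were TGANTCA for AP-1, a family of activation-induced transcription factors. They were AGATAA for GATA, the family of the Th2 regulator Gata3. For RUNX, factors that act throughout T cell development, they were TGTGGT.
Ccr2 promoter, chr9:124101933-124102232, plus strand: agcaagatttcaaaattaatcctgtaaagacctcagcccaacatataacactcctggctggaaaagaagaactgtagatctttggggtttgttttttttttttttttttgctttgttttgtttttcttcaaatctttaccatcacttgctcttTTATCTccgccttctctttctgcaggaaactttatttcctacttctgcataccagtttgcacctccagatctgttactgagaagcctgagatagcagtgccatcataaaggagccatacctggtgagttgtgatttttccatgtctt
Cxcr6 promoter, chr9:123806227-123806526, plus strand: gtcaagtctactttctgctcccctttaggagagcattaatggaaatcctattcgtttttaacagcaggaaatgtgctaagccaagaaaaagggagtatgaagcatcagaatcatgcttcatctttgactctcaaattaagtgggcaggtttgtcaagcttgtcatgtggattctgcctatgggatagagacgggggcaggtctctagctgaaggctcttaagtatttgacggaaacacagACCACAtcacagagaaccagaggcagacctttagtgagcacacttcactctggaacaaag
Ccr4 promoter, chr9:114496495-114496794, minus strand: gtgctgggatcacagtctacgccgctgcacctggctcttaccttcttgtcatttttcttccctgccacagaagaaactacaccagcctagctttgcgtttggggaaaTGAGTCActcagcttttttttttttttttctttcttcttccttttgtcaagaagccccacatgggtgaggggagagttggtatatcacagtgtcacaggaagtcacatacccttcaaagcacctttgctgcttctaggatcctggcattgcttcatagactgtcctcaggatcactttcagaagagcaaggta
Ccr8 promoter, chr9:120091883-120092182, plus strand: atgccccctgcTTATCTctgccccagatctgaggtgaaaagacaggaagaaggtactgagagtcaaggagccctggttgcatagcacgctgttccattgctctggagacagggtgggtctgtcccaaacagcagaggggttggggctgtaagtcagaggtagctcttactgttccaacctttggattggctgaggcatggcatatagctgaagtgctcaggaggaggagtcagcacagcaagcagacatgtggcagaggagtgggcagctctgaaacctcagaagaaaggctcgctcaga
The Ccr2 promoter holds a GATA match at position -97 from the start site, and the Ccr8 promoter holds another at -239. Cxcr6 holds a RUNX match at -10 and Ccr4 an AP-1 match at -143. Of all 32851 promoters in the table, 11.2% hold the GATA letters, 16.8% the RUNX letters and 7.81% the AP-1 letters, and these motifs do not overlap in the 4 windows. Over the 8 member promoters in the table, 2 held GATA, 3 RUNX and 1 AP-1, while the T-box and STAT motifs were found in 0. The T-box letters GGTGTGA stand in 3.98% of all promoters. For STAT factors, which act downstream of cytokine receptors, the letters TTCNNNGAA stand in 8.30%. A match is a stretch of letters, not a measured binding site.

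Ccr4, the receptor for CCL17 and CCL22, was spread over most effector and regulatory states. Among states with at least 100 cells, in CD27_KO the unnamed state led by P2rx7 was highest with 69.2 CPM (60.6 to 78.7), followed by the states led by Bcl2a1d (56.6 CPM) and Ccl1 (56.5 CPM), whose intervals overlap it in turn. In WT the Treg-like state led by Foxp3 (55.7 CPM) and the state led by Bcl2a1d (54.0 CPM) were highest, and the intervals of all neighbours in the order overlapped down to the state led by Gpm6b. That state had 16.0 CPM in CD27_KO and 9.41 CPM in WT, and naive-like cells had 1.48 and 0.753 CPM. The state led by Gzma had no Ccr4 UMI in either library. Mthfsl, Lpxn and A930006K02Rik were the genes of most similar level, with r between 0.850 and 0.858.

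Ccr8, the receptor for CCL1, was a low-level transcript with 192 UMIs in CD27_KO and 158 UMIs in WT. Its highest levels were in the Th2-like state led by Calca, 17.2 CPM in CD27_KO and 27.5 CPM in WT, and in the Treg-like state led by Cxcl2, 17.8 CPM in CD27_KO and 24.8 CPM in WT. Both states had overlapping intervals in each library. The Th2-like state led by Ccl1, whose leading gene is the ligand of CCR8, had 13.4 CPM in CD27_KO and 15.9 CPM in WT. In CD27_KO 25.5% of Ccr8 UMIs came from the Calca state and 7.29% from the Cxcl2 state, while in WT these gave 11.4% and 60.8%. Akap7, Hilpda and Impa2 were the genes of most similar level (r between 0.846 and 0.871).

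Ccr1, a receptor for CCL3 and CCL5, was in WT the member whose transcripts were held most by a single state. In WT, 194 of 204 UMIs, or 95.1%, came from the Treg-like state led by Cxcl2, at 50.1 CPM (43.3 to 57.7). In CD27_KO, 25 of 64 UMIs came from that state, at 31.7 CPM (20.5 to 46.9). Another 18 came from 432 cells of the Th2-like state led by Ccl1, at 5.88 CPM (3.49 to 9.29). In WT that Ccl1-led state had 4 UMIs in 64 cells, at 9.07 CPM (2.47 to 23.2). This interval spans that of CD27_KO, so the counts do not tell the levels apart. The Treg-like state led by Foxp3 had 12.6 CPM in CD27_KO and 0 UMIs in WT, where 3 counts would be 7.95 CPM and the exact upper limit is 9.78 CPM. Both Th1-like states together had 0 Ccr1 UMIs in CD27_KO and 2 in WT. Genes of similar level were Pcyt1a, Frmd5 and Ctsh (r between 0.895 and 0.912), and the first pair of these also lead the Cxcl2 state.

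Ccr9, the receptor for CCL25, had few carriers, and its highest level lay outside the T cells. The plasmacytoid dendritic-like cluster, which was left out of the T cells, had 655 CPM of Ccr9 in CD27_KO and 438 CPM in WT. Among T cell states, the Th17-like state had 70.1 CPM in CD27_KO and 66.0 CPM in WT, from 16 and 18 UMIs. In CD27_KO, 10 of its 16 UMIs came from a single cell. The Treg-like state led by Foxp3 had 98.05 CPM in CD27_KO (76.4 to 124), from 70 UMIs in 22 of its 241 cells, and 0 UMIs in 198 WT cells. A Foxp3 UMI was present in 13 of these 22 cells, against 104 of the other 219 CD27_KO cells of the state. The 22 cells held 0 UMIs of Siglech, a defining gene of plasmacytoid dendritic cells, and the markers of that cell type summed to 110 CPM in them, against 153 CPM in the other CD27_KO cells of the state and 10435 CPM in the CD27_KO dendritic-like cells with Ccr9. Their median depth was 3657 UMIs, against 2198 UMIs in the cells of the state without Ccr9. Ccr9 overlaps the genes Gm17200 and Gm17020 on its strand, so reads in the overlap may be assigned uncertainly. Acpp, Dedd and Gpx1 were the genes of most similar level, with r of at most 0.778.

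Cx3cr1, the receptor for CX3CL1, marked the small unnamed state led by Gzma, whose leading genes include Zeb2, S1pr5 and Klrd1. That state had 609 CPM in CD27_KO (86 cells) and 559 CPM in WT (47 cells). It was 1.27% of CD27_KO and 0.758% of WT T cells and held 71.1% and 50.5% of the Cx3cr1 UMIs. No other T cell state passed 16.4 CPM in CD27_KO or 12.5 CPM in WT. Gzma, Borcs7 and Zeb2 were the genes of most similar level (r between 0.828 and 0.907). The 3′ end of Cx3cr1 shares a stretch of at least 50 bases at 95% identity with Cdk15 and Gm43637, and the gene overlaps others on its strand, so a part of its reads may be assigned uncertainly.

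Cxcr5, the receptor for CXCL13, was at the limit of detection with 7 UMIs in CD27_KO and 31 UMIs in WT. Of these, 5 in CD27_KO and 19 in WT came from the state led by Gpm6b, at 6.67 CPM and 11.9 CPM. No T cell held more than 1 Cxcr5 UMI, and no gene was compared with it for likeness.

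Cxcr4 differed from the other members by its even level. It was between 151 and 235 CPM over the states with at least 100 cells in CD27_KO and between 139 and 260 CPM in WT. Naive-like cells were lowest in both libraries, 151 CPM in CD27_KO (123 to 183) and 139 CPM in WT (125 to 154), though the intervals of the next states in the order, the cycling-like state in CD27_KO and the Th17-like state in WT, overlapped them. In WT the order held 1 gap beyond counting error, between the state led by Gpm6b (213 CPM) and the Th2-like state led by Calca (151 CPM), and in CD27_KO it held 0. Itpkb, Lrp10 and St8sia4 were nearest in level (r between 0.750 and 0.775).

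**Figure D2:**
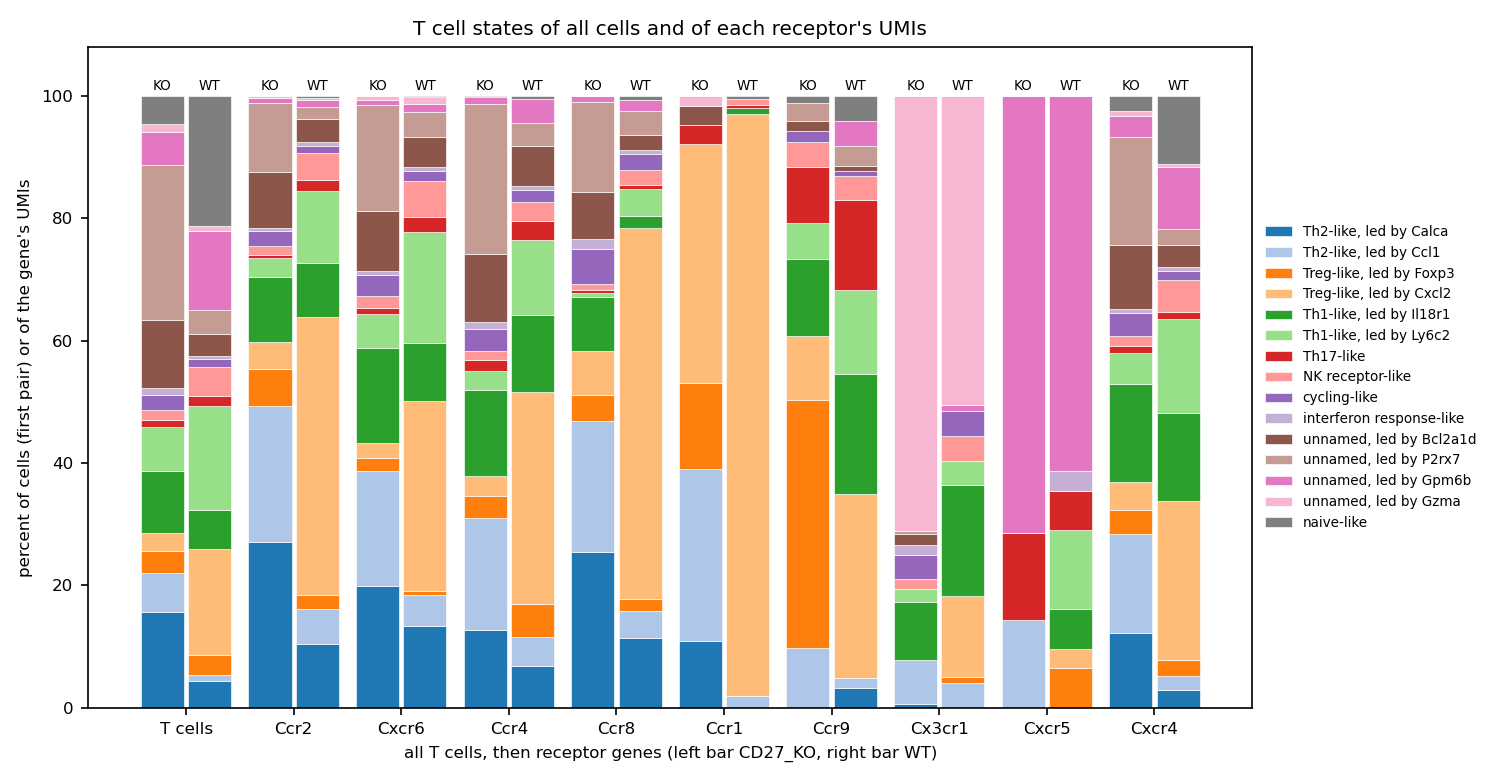
Percent of all T cells (first pair of bars) and of each receptor's UMIs that fall in each T cell state, with the CD27_KO library as the left bar and the WT library as the right bar of a pair. The Treg-like state led by Cxcl2 gives 39.1% of Ccr1 UMIs in CD27_KO and 95.1% in WT, and Cxcr5 bars rest on 7 and 31 UMIs.

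Shares of cells with a UMI depend on depth, so each cell was thinned to 1300 UMIs, which left out 54 CD27_KO and 536 WT cells. Ccr2 was then seen in 30.6% of CD27_KO cells (95% exact binomial interval 29.5% to 31.7%) and 19.6% of WT cells (18.6% to 20.7%). Without thinning the shares were 45.9% and 29.6%. Cxcr6 was seen in 23.2% of CD27_KO and 12.8% of WT thinned cells, and in 38.9% and 20.97% without thinning. Naive-like cells, taken here as a low reference, gave 0.318% with Ccr2 in CD27_KO and 0.401% in WT, and 0.955% and 0.241% with Cxcr6. Their median depth before thinning was 2075 and 1863.5 UMIs. The shares over all T cells were far above these, though no cells known to lack both genes were measured as a blank. Cxcr4 was seen in 22.2% of CD27_KO and 22.4% of WT thinned cells, and Ccr4 in 6.04% and 2.33%. Ccr8, Ccr9, Cx3cr1, Ccr1 and Cxcr5 were each seen in at most 1.46% of thinned cells in either library. No member UMI was left in 39.3% of CD27_KO and 53.6% of WT thinned cells, exactly 2 members were seen in 17.1% and 10.1%, and the most in any cell was 4.

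Ccr2 and Cxcr6 were seen together in 621 CD27_KO and 254 WT thinned cells, and Ccr2 and Cxcr4 in 448 and 260, the 2 most frequent pairs in both libraries. Among cells with Cxcr6, 39.7% in CD27_KO and 35.1% in WT also held Ccr2, against 30.6% and 19.6% of all cells. Among cells with Cxcr4 the shares with Ccr2 were 29.9% in CD27_KO and 20.5% in WT, close to those of all cells. Ccr2 was seen in 11 of the 22 CD27_KO and 42 of the 83 WT thinned cells with Ccr1, and 68.2% and 68.7% of these cells held Il1rl1, the IL-33 receptor, which was seen in 19.4% and 14.2% of the cells without Ccr1. Klrg1, an inhibitory receptor of effector and tissue regulatory cells, was seen in 59.1% of CD27_KO and 61.4% of WT cells with Ccr1. S1pr1, a receptor for exit from tissues, was seen in 10.6% of cells with Cxcr6 in CD27_KO and 13.7% in WT, against 19.1% and 29.2% of cells without Cxcr6. This was not particular to Cxcr6. Cells with Ccr2 held S1pr1 in 12.3% and 16.7%, against 19.2% and 29.8% without it. For Ccr1, Ccr4, Ccr8, Ccr9 and Cx3cr1 the share was also lower in carriers in both libraries. Of the 18 WT cells with Cxcr5, 33.3% held S1pr1, against 27.2% of the others. All these shares are over all T cells, naive-like cells included, and were not compared within states. For Cxcr4, S1pr1 was seen in 15.8% of CD27_KO and 26.6% of WT carriers and in 17.5% and 27.4% of the other cells.

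Over all T cells, 3 members were higher and 1 was lower in the CD27_KO library by at least 1.5-fold, of the 8 members with at least 100 UMIs over both libraries. Among all 9758 genes with that count, 7.01% were higher and 2.84% were lower by that measure. Cxcr6 had 243 CPM in CD27_KO and 128 CPM in WT (log2 ratio 0.92, interval 0.85 to 1.0002). Ccr2 had 371 CPM in CD27_KO and 223 CPM in WT (log2 ratio 0.73, 0.67 to 0.79), which falls to 0.56, under 1.5-fold, once the median gene is set to 0, and to 0.44 when each cell counts at most 1 UMI. Ccr4 had 47.7 CPM in CD27_KO and 24.1 CPM in WT (log2 ratio 0.98, 0.81 to 1.16). Ccr1 was the member lower in CD27_KO, with 3.23 CPM against 12.9 CPM in WT (log2 ratio -2.00, -2.42 to -1.58). The median gene had a log2 ratio of 0.17, so each value reads against that shift.

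The other 4 members with enough UMIs were not 1.5-fold apart. Cxcr4 had 211 CPM in CD27_KO and 210.0 CPM in WT (log2 ratio 0.00, -0.06 to 0.07), and set against the median gene its log2 ratio was -0.17. Ccr8 had 9.69 CPM in CD27_KO and 9.98 CPM in WT, and Ccr9 had 8.73 CPM and 7.77 CPM. Cx3cr1 had 9.09 CPM in CD27_KO and 6.25 CPM in WT (log2 ratio 0.54, 0.18 to 0.91), and passed 1.5-fold, at 0.93, without the Th2-like state led by Ccl1 and the Th1-like state led by Il18r1, a setting chosen after seeing the data. Cxcr5 had 0.353 CPM in CD27_KO and 1.96 CPM in WT, on too few UMIs for the count.

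The differences of Ccr2, Cxcr6, Ccr4 and Ccr1 were smaller when both libraries were given the same state shares. Those of Ccr8 and Ccr9 were larger. Each state's CPM was weighted by the mean of its share of T cells in both libraries. The log2 ratio was then 0.36 for Ccr2 (0.28 to 0.44), 0.30 for Cxcr6 (0.20 to 0.40), 0.49 for Ccr4 (0.26 to 0.72) and -0.39 for Ccr1 (-0.87 to 0.10). Of the 8 members, 0 were 1.5-fold higher and 0 were 1.5-fold lower by this measure. The share of all genes past 1.5-fold was not computed at equal state shares, so these counts are not read as particular to the members. These counts depend on the weights and the clustering. With the WT shares as weights Ccr9 passed 1.5-fold, at 0.80, and without the states led by Ccl1 and Il18r1 it had 0.61. At a resolution of 0.6 Ccr4 passed it, at 0.70, and Ccr1, at -0.80, and Ccr1 also with receptor genes allowed in the clustering, at -0.59. For Ccr2, Cxcr6 and Ccr4 the interval at equal state shares stayed above 0. The median gene's shift of 0.17 was taken over all T cells without these weights and was not computed with them, so the intervals are not read against it. Ccr8 had -0.42 (-0.85 to 0.00), Ccr9 0.48 (0.03 to 0.93), Cx3cr1 0.01 (-0.37 to 0.40) and Cxcr4 -0.02 (-0.11 to 0.07).

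**Figure D3:**
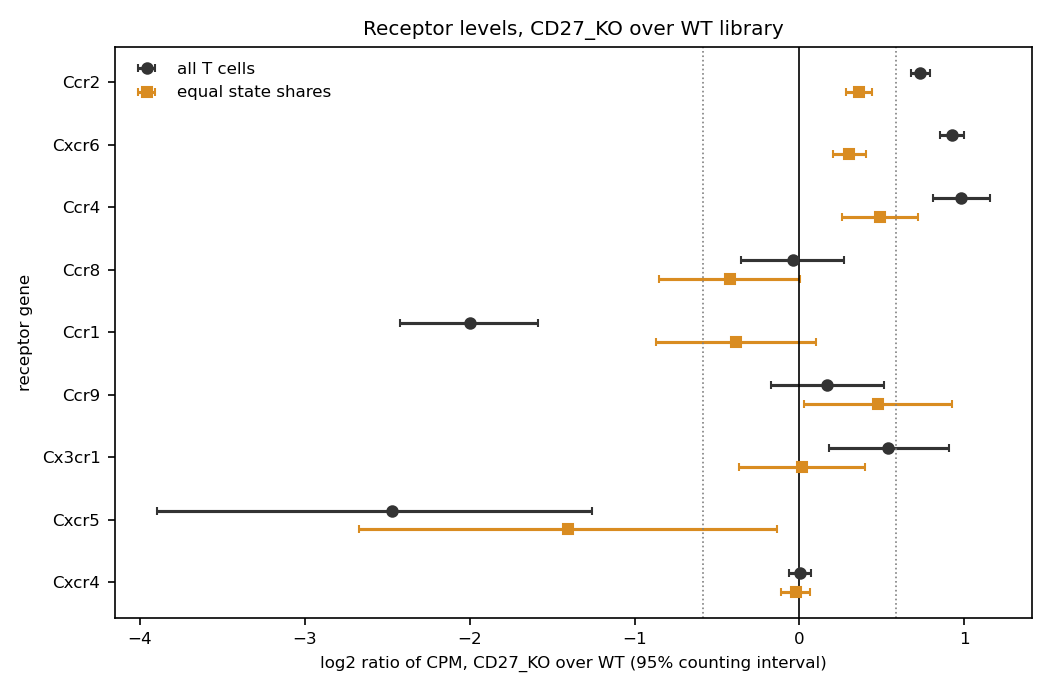
Log2 ratio of CPM, CD27_KO over WT, for each receptor over all T cells (circles) and with equal state shares (squares), with 95% counting intervals and dotted lines at 1.5-fold. Cxcr6, Ccr4, Ccr2 and Ccr1 lie past a dotted line over all T cells and inside it with equal shares; Cxcr5 rests on 38 UMIs.

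Within states, 10 states had at least 100 cells in each library and gave 43 values for a member with at least 30 UMIs. Of these, 11 were at least 1.5-fold higher and 5 at least 1.5-fold lower in CD27_KO. Over all genes and the same states, 13.3% of values were higher and 6.18% lower. Cxcr6 and Ccr2 gave 7 of the 11 higher values. In the Treg-like state led by Foxp3, Ccr2 had 620 CPM in CD27_KO and 207 CPM in WT (log2 ratio 1.59, 1.24 to 1.95), and Cxcr6 had 137 CPM and 37.1 CPM (1.89, 1.07 to 2.81). In the other Treg-like state, led by Cxcl2, Ccr2 had 416 CPM in CD27_KO and 415 CPM in WT, and Cxcr6 had 154 CPM and 162 CPM. The difference of the Foxp3-led state was thus not seen in the Cxcl2-led state, and it was not tested between them. A Foxp3 UMI was found in 59.1% of the CD27_KO cells of the Foxp3-led state with Ccr9 and in 47.5% of those without it, against 35.4% of the WT cells of the state, and the part of this difference in the result was not tested. These shares are from cells that were not thinned, and such shares depend on depth. The median depth of the state was 2276 UMIs in CD27_KO and 1714.5 UMIs in WT.

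The same pair of receptors was higher in 2 further states. In the Th1-like state led by Il18r1, Cxcr6 had 258 CPM in CD27_KO and 105 CPM in WT (log2 ratio 1.30, 1.07 to 1.54) and Ccr2 266 CPM and 171 CPM (0.64, 0.45 to 0.84). That state was named from 5 of 12 Th1 markers, with a median marker log2 ratio of 0.52 over the other cells. Its median depth was 3808 UMIs in CD27_KO and 4249 UMIs in WT, against 2201 and 1931 UMIs over all T cells. The part of depth in its values was not tested. In the state led by Gpm6b, Cxcr6 had 53.3 CPM in CD27_KO and 16.9 CPM in WT (1.65, 0.91 to 2.41), and Ccr2 77.3 CPM and 27.0 CPM (1.52, 0.92 to 2.12). Cxcr6 also passed 1.5-fold, narrowly, in the Th1-like state led by Ly6c2, with 266 CPM in CD27_KO and 177 CPM in WT (0.59, 0.36 to 0.82). In the Th2-like state led by Calca, where both receptors are highest, Ccr2 had a log2 ratio of 0.32 and Cxcr6 one of -0.29, both under 1.5-fold. Some of these values depend on the clustering or on the cells kept. Ccr2 in the Il18r1-led state had a log2 ratio of 0.22 with receptor genes allowed in the clustering and 0.31 at a resolution of 1.5. Cxcr6 in the Ly6c2-led state had 0.45 at a resolution of 0.6. Without the cells of highest doublet score it had 0.5849 there. All of these were under 1.5-fold, the last one narrowly.

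Ccr4 was higher in the state led by P2rx7, with 69.2 CPM in CD27_KO and 35.0 CPM in WT (log2 ratio 0.98, 0.21 to 1.88), and in the Th1-like state led by Il18r1, with 45.7 CPM and 26.2 CPM (0.80, 0.32 to 1.31). The value in the P2rx7-led state was 0.39 at a resolution of 1.5. That in the Il18r1-led state did not hold with receptor genes allowed in the clustering, where its log2 ratio was -0.31, nor without the cells of highest doublet score, where it was 0.49. Cxcr4 was within 1.5-fold in all 10 states. Its values ran from -0.44 in the NK receptor-like state, with 185 CPM in CD27_KO and 251 CPM in WT, to 0.24 in the Th2-like state led by Calca.

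**Figure D4:**
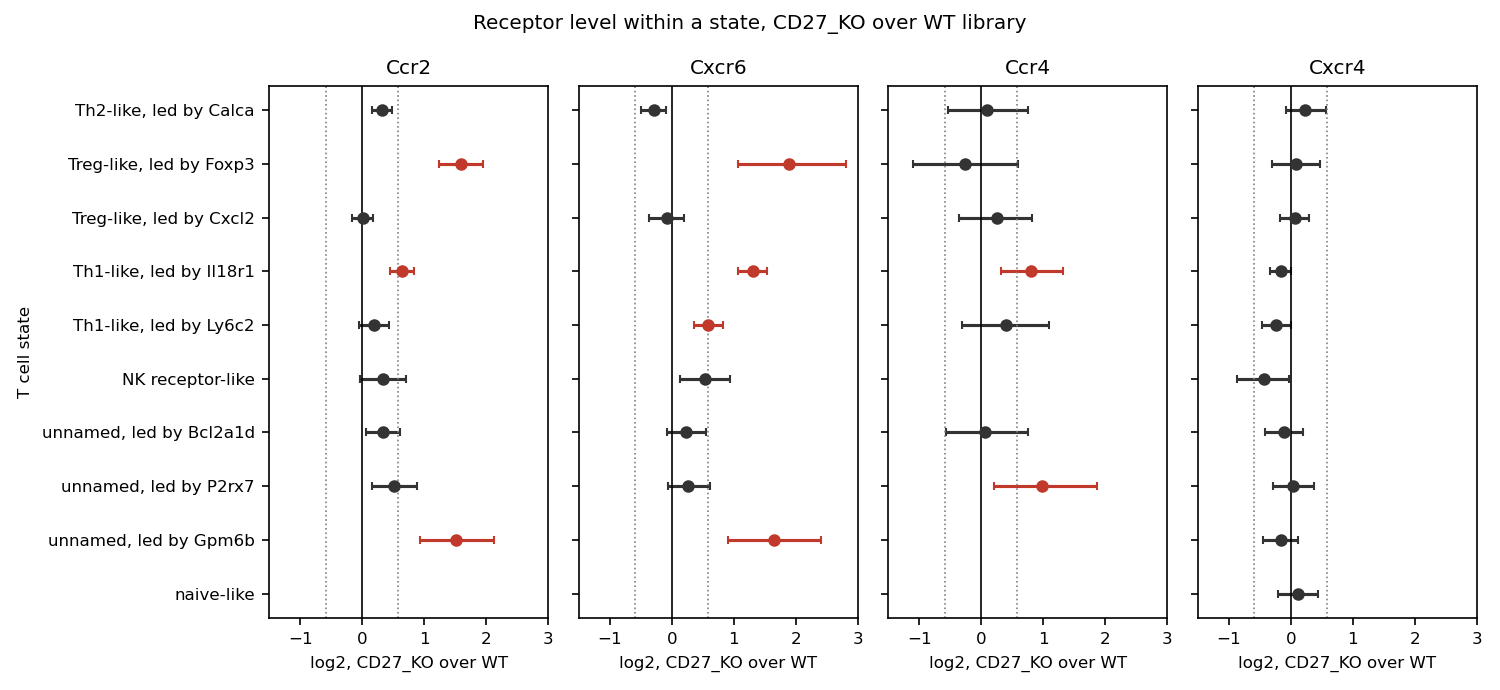
Log2 ratio of CPM, CD27_KO over WT, of Ccr2, Cxcr6, Ccr4 and Cxcr4 in each state with at least 100 cells per library and at least 30 UMIs of the gene, with 95% counting intervals. Red points are at least 1.5-fold apart, and dotted lines mark 1.5-fold; Cxcr4 has 0 red points over 10 states.

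The rarer members gave the rest. Ccr9 was higher in the Foxp3-led Treg-like state, by 12.3-fold when a floor of 3 counts stands for the 0 UMIs in WT, which is not a lower limit. The lower end of the exact 95% interval from the counts was a log2 ratio of 3.29, which is below the 3.62 that the floor gives. In the Cxcl2-led Treg-like state Ccr9 had 22.9 CPM in CD27_KO and 9.56 CPM in WT (log2 ratio 1.26, 0.36 to 2.11), while in the Th1-like state led by Il18r1 it had 7.61 CPM and 13.1 CPM (-0.78, -1.69 to 0.12). Ccr1 was lower in the Cxcl2-led state (log2 ratio -0.66, -1.32 to -0.05). Ccr8 was past 1.5-fold in the lower direction in the Th2-like state led by Calca (-0.68, -1.48 to 0.19) and the state led by P2rx7 (-0.84, -2.14 to 0.72), and Cx3cr1 in the Th1-like state led by Il18r1 (-0.74, -1.78 to 0.30), but the intervals of these 3 values and of Ccr9 in the Il18r1-led state include 0. At a resolution of 1.5, Ccr1 in the Cxcl2-led state had -0.58 and Ccr8 in the Calca-led state -0.56, both under 1.5-fold.

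The rest of the family and of the migration machinery was read from lists chosen by function. Of 14 other chemokine receptors, 6 had at least 100 UMIs, and 0 of these were higher and 3 lower in CD27_KO. Ccr7, the lymph node homing receptor, had 23.9 CPM in CD27_KO and 81.8 CPM in WT (log2 ratio -1.77). Ccr3, the eotaxin receptor that lies between Ccr1 and Ccr2, had 7.82 CPM in CD27_KO and 17.4 CPM in WT (-1.15), and Ccr6, a receptor for CCL20, had 2.73 CPM and 5.12 CPM (-0.91). The median of the 6 was -0.37, against 0.17 over all genes.

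Of 14 genes for adhesion and tissue exit, 10 had enough UMIs, with 1 higher and 2 lower and a median log2 ratio of 0.00. Itga1, an integrin subunit that binds collagen, had 58.2 CPM in CD27_KO and 38.4 CPM in WT (0.60). S1pr1 was lower, with 172 CPM in CD27_KO and 294 CPM in WT (-0.77). Of 21 chemokines that bind the members or their relatives, 5 had enough UMIs, with 1 higher, 0 lower and a median of 0.16. Ccl4, an inflammatory CC chemokine, had 25.6 CPM in CD27_KO and 15.2 CPM in WT (0.75).

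Of 23 signalling genes downstream of the receptors, 21 had enough UMIs, with 3 higher and 2 lower and a median log2 ratio of 0.21. Grk5, a kinase that phosphorylates active receptors, had a log2 ratio of 1.13, Gng2, a G protein gamma subunit, 0.75, and Pik3cg, a lipid kinase activated by G proteins, 0.62. Rgs16 (-1.36) and Rgs10 (-0.59), which both speed the switching-off of G proteins, were lower in CD27_KO. Every list value was taken over all T cells and carries the difference in state shares given above. Once the median gene is set to 0, only 1 signalling gene, 0 migration genes and 0 ligands were 1.5-fold higher.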

How the data were processed

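The members and gene lists were chosen with earlier results of these data known. Groups come from the sample titles, as the genotype entry does not tell the samples apart. The series design and the sample protocol name different kit versions. Per the file headers, the authors' counts come from Cell Ranger 6.1.1, and per the submitters' processing notes the build is mm10. The values deposited for each gene and called cell are UMI counts, not normalized. Other alignment settings: not given in the sources used here.

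A barcode stayed if it had 500 or more genes and no more than 10% of its UMIs from mitochondrial genes (6853 of 6893 in CD27_KO and 6338 of 6398 in WT). Clustering ran in scanpy 1.11.5 with igraph 0.11.9 on Python 3.11.15, over cells of both libraries and with no correction for library (2000 variable genes without chemokine receptors, 30 principal components, 20 neighbours, Leiden resolution 1, seed 0). A cluster was named from at least 3 markers at 1.5-fold. UMIs were summed per state and library and given as CPM of all UMIs there, not divided by gene length. A value is apart past 1.5-fold, given a minimum of 100 UMIs over all T cells or 30 within a state. Intervals come from scipy 1.17.1 and are exact Poisson, exact binomial or exact conditional ones at 95%, with a normal approximation for equal state shares. No cell was removed as a doublet, since Scrublet marked 0 cells in either library, which is not a working call. Unnamed states were compared between libraries too. Named genes are all members, list genes past 1.5-fold (at most 4 in each direction) and, for members with at least 100 UMIs, the 3 genes of highest r. Gene ends were compared with BLAST 2.17.0. A list gene that the naming rule takes is not reported here. Cell filters, scaling, state weights, resolution and thinning depth were varied.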

Additional observations from a re-analysis of the deposited data

Results flagged for a closer look

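The level of Ccr9 in CD27_KO against WT had opposite signs in different T cell states. The log2 ratio, CD27_KO over WT, was 3.62 in the Treg-like state led by Foxp3, computed against a floor of 3 counts in WT, where it had 0 UMIs, and the lower end of the exact interval was 3.29. It was 1.26 in the Treg-like state led by Cxcl2 and -0.78 in the Th1-like state led by Il18r1, where the interval includes 0. The difference between the states was not tested, and with 1 library per genotype it cannot be told apart from a difference between the pools.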

How the results depend on the processing

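No paired analysis was possible because each genotype has 1 library and the labels give no replicate numbers. Over all T cells, Cxcr6, Ccr4 and Ccr1 kept their direction and stayed past 1.5-fold under each setting tried, and Ccr2 under all but centring and capping. Scaling without ribosomal, mitochondrial and antigen receptor genes gave log2 ratios of 0.65 for Ccr2, -0.0809 for Cxcr4 and 0.84 for Cxcr6. Centring on the median gene gave 0.56, -0.17 and 0.75. Capping each cell at 1 UMI gave 0.44 for Ccr2, -0.304 for Ccr9, -0.0704 for Cxcr4 and 0.70 for Cxcr6. A stricter minimum of genes per cell gave 0.60 for Ccr2 and 0.82 for Cxcr6. Keeping the clusters that are not T cells gave -0.35 for Ccr9 and 0.63 for Cx3cr1, then past 1.5-fold. Without the states led by Ccl1 and Il18r1, a setting chosen after seeing the data, Cxcr6 had 0.84 and Cx3cr1 0.93. Centred, 0 migration genes, 0 ligands and 1 signalling gene were higher. With a minimum of 20 UMIs, 1 other receptor and 2 migration genes were higher and 4 migration genes lower.

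The count of members apart within states was 16, and between 12 and 14 under other clusterings and without the 6% of cells with the highest doublet scores. The last of these and the other resolutions were tried within states after seeing the data. Signs turned in 10 values, each of which was past 1.5-fold in the opposite direction in the main setting. With resolution 0.6, Ccr8 in the P2rx7-led state had 0.29. With receptor genes in the clustering, Ccr4 in the Il18r1-led state had -0.31. The other 8 compare a class with the other T cells. Ccr9 in WT Th1-like cells had -0.21 at resolution 1.5, -0.0360 with receptor genes in the clustering and -0.16 with states from marker transcripts. Ccr1 in CD27_KO Th2-like cells had -0.42 with each library clustered alone. With marker transcripts it had -0.20 in CD27_KO and 1.498 in WT Th2-like cells, Cxcr5 in WT Treg-like cells had 0.30, and Cx3cr1 in CD27_KO Th1-like cells had 1.96. Classes from marker transcripts can take cells of unnamed states, which the main classes leave out. The Gzma-led state, which held most Cx3cr1 UMIs in CD27_KO, is such a state. The cause was not tested.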

Other observations

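Receptor transcripts were also found in the clusters left out of the T cells. The plasmacytoid dendritic-like cluster had 415 CPM of Ccr2 in 26 CD27_KO cells and 336 CPM in 55 WT cells, beside its Ccr9. The B cell-like cluster had 44.4 CPM of Cxcr5 in 25 CD27_KO cells and 18.8 CPM in 50 WT cells, from 7 and 5 UMIs. That cluster also held 140 CPM of Cxcr6 in CD27_KO and 67.7 CPM in WT, macrophage genes such as C1qa and Lyz2 are among its leading genes, and its cells had medians of 5285 and 4355 UMIs, so T cell doublets in it were not tested. The stromal-like cluster, with 11 CD27_KO and 29 WT cells, had 1 Ccr2 UMI and 2 Cxcr4 UMIs in CD27_KO and 1 Cxcr6 UMI in WT.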
